A study of Mus musculus with 6 samples.

Results

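The genes described here build cholesterol and fatty acids. Cells make cholesterol from acetyl units through mevalonate, farnesyl diphosphate, squalene and lanosterol, and they make fatty acids from acetyl units through malonyl-CoA, then lengthen and desaturate the chains. Both routes are switched on by the SREBP transcription factors, which are held in the endoplasmic reticulum by SCAP and the INSIG proteins while sterol is plentiful and are released to the nucleus when it runs low. Farnesyl diphosphate, an intermediate of the sterol route, is also the source of the prenyl groups that anchor RAS-related GTPases in membranes.

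The members were a list of 37 gene symbols, set out as 18 sterol synthesis enzymes, 6 genes called regulators here, and 13 fatty acid synthesis genes. The regulators are SREBP pathway genes together with the sterol carrier Stard4. The platform annotation used here names probe sets for 33 of them, 1 each, among 19505 genes in all. These are 16 sterol enzymes, 5 regulators and 12 fatty acid genes. Acat2, Tm7sf2, Srebf1 and Scd2 were not analysed here. The study measured RNA on 6 Affymetrix arrays, 1 per sample, in fibrosarcoma cells from C57BL/6 mice. These tumor cells express mutant Rras2(Q72L), and RRAS2 is a GTPase related to RAS. The 3 control samples were transduced with the empty vector pLKO (replicates 1 to 3), and the 3 knockdown samples with an Rras2-directed shRNA vector (shRras2, replicates 4 to 6). All cells grew in DMEM with 10% fetal bovine serum, L-glutamine, penicillin and streptomycin. A single shRNA was used on what the labels describe as the same tumor cells, and the labels do not say whether the samples of a group were separate cultures, so the p-values reflect sample-to-sample spread that could be technical. The comparison asks how transcripts differ when the mutant cells have less Rras2 RNA.

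Values are log2 RMA signals, and differences are knockdown minus control. Rras2 itself had 10.67, 10.75 and 10.82 on the control arrays and 9.09, 9.69 and 9.21 on the knockdown arrays, a difference of -1.41 ± 0.14 (SE, limma adjusted p = 0.00163). All knockdown arrays lay below the controls, replicate 5 nearest them, and an exact two-sided permutation over the arrays gave 0.1, the lowest p that this design allows. Of 14 measured fibroblast and mesenchymal markers, 9 lay above the 95th percentile of the negative-control probe sets (7.92) in both groups, Vim and Fn1 among them, and Col1a2, Thy1, Dcn, Lum and Twist1 did not. Of the 14, 5 rose (Col3a1, Col5a1, Col6a1, Pdgfrb and Dcn) and 0 fell, with a median difference of 0.22. Their mean level ran from 9.35 to 9.41 on the control arrays and from 9.53 to 9.73 on the knockdown arrays, and all 5 calls were lost without control replicate 3, knockdown replicate 4 or knockdown replicate 6. None of the 8 epithelial, 7 endothelial or 6 immune markers lay above that percentile in both groups. In bulk RNA, fewer cells of a kind and less RNA per cell cannot be told apart. Among 15 skeletal muscle markers 11 rose and 0 fell. Their mean level ran from 6.53 to 6.74 on the control arrays and from 8.04 to 8.67 on the knockdown arrays, lowest of the 3 on replicate 5. The part of the fibroblast and muscle markers in the results below was not tested. The mean level of 9 adipocyte markers ran from 6.03 to 6.11 and from 6.14 to 6.19. Of the 9, 8 stayed below the negative-control percentile in both groups, Adipoq, Plin1, Lep and Fabp4 among them. Lpl alone lay above it, with a mean of 8.95 in the controls and 8.96 in the knockdown. Pparg rose from a dim level, and Cidec, also dim, had a difference of -0.41 ± 0.12 (SE, limma adjusted p = 0.0974). Of 11 proliferation markers 0 passed limma's threshold, and 3 had an unadjusted p under 0.05, all lower. Over all genes 2.22% passed as lower and 2.99% as higher, and 10.0% had an unadjusted p under 0.05 downward. Among genes above the negative-control percentile in both groups these shares were 3.93%, 3.87% and 15.3%.

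The stretches before the start sites of 6 members are shown because they carry, or lack, the short motifs known from lipid gene promoters. The CCAAT box is bound by NF-Y and GC boxes by SP factors, both known partners of SREBPs, and the classical sterol regulatory element (SRE) is bound by SREBPs. Sequences are from RefSeq, build GRCm38.p6, 5′ to 3′ on the gene's strand. They run up to 250 bases before the listed start and end before the first base of the gene in the RefSeq table. Capitals mark CCAAT on either strand (ATTGG when read on the opposite strand) and, in Hmgcs1 alone, a match to the SRE string TCACNCCAC. By the RefSeq gene table the stretches are upstream flank and overlap no other gene, except that of Elovl6, which overlaps the predicted gene Gm35986. Lss, Scap and Elovl6 are the members that fell. Idi1 and Msmo1 stand for the other sterol enzymes.
Hmgcs1, chr13:119690101-119690350, plus strand: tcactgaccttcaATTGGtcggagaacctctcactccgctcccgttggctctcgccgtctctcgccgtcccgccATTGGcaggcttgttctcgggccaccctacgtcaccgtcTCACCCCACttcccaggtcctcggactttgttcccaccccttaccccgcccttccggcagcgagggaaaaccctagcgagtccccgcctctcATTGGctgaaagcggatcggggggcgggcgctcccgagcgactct
Idi1, chr13:8885356-8885605, plus strand: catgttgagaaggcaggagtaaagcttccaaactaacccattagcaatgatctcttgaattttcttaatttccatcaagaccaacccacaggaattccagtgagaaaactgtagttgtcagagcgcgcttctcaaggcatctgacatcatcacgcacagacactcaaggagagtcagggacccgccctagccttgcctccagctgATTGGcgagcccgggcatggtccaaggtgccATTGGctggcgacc
Lss, chr10:76531355-76531564, plus strand: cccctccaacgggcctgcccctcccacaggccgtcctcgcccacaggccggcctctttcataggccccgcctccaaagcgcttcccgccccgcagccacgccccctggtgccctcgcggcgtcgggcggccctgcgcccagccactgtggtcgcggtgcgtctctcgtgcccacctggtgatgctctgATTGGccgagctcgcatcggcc
Msmo1, chr8:64733579-64733828, minus strand: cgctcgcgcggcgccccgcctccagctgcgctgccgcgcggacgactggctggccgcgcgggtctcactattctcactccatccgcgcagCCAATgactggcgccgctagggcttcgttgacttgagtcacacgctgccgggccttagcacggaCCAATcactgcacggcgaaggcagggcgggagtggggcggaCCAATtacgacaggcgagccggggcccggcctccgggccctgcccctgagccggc
Scap, chr9:110333038-110333287, plus strand: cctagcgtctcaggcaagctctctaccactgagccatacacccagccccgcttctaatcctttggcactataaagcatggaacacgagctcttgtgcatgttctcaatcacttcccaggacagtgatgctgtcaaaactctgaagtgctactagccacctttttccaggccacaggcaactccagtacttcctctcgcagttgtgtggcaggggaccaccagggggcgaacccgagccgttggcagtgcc
Elovl6, chr3:129532136-129532385, plus strand: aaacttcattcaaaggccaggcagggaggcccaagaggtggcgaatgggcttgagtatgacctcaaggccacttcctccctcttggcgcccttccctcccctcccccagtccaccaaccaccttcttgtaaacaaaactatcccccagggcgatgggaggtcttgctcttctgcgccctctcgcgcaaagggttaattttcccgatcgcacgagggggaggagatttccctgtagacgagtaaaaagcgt

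The promoter table held 30 of the 37 listed symbols, Acat2, Tm7sf2 and Srebf1 among them. It lacked Fdps, Fdft1, Sqle, Stard4, Scd1, Scd2 and Fads1, which were therefore not searched. Motifs were searched on both strands of the 250 bases before every listed start, and a gene counted as a holder if any of its starts had a match. CCAAT was found for 14 of 15 sterol enzymes (all but Acat2), 4 of 5 regulators and 6 of 10 fatty acid genes. Among 17492 protein-coding genes 39.5% held it. By the RefSeq gene table, every window searched for Acaca, Acacb, Fasn, Elovl1 and Srebf1 lay inside the gene itself. Among the holders, Acacb, Fasn, Elovl1, Me1, Srebf1 and the sterol enzyme Dhcr7 matched CCAAT only inside their own gene. The upstream flank of Mvk overlaps Mmab, that of Nsdhl Cetn2 and that of Tm7sf2 Vps51. Flanks of Acat2, Mvd, Hsd17b7, Insig1, Me1 and Elovl6 also overlap another gene. Which gene a match in these flanks serves was not tested. The shares of the member groups thus do not compare upstream flanks alone. Of the 29 CCAAT matches of the sterol enzymes, 22 began within 120 bases of the start, with a median of 60 bases. Mvk, with 5 matches, held the most. GGGCGG, the GC box, was found for 14 of 15 sterol enzymes, 5 of 5 regulators and 5 of 10 fatty acid genes, against 45.8% of protein-coding genes. CACGTG, the E-box, was found for 3, 2 and 1 of them, against 7.61%. The SRE, searched as TCACNCCAC, was found in 1 member, Hmgcs1, 137 bases before the start as TCACCCCAC, and in 1.20% of protein-coding genes. None of these motifs contains another. Among genes with a single listed start, 12 of 13 sterol enzymes held CCAAT, against 36.9% of 14731 protein-coding genes. A match is a description of the letters only. SREBP sites that differ from TCACNCCAC were not searched, so a member without this string may still hold such a site. Of the 3 members that fell, Lss held a CCAAT box and Scap and Elovl6 held none in these windows.

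**Figure D1:**
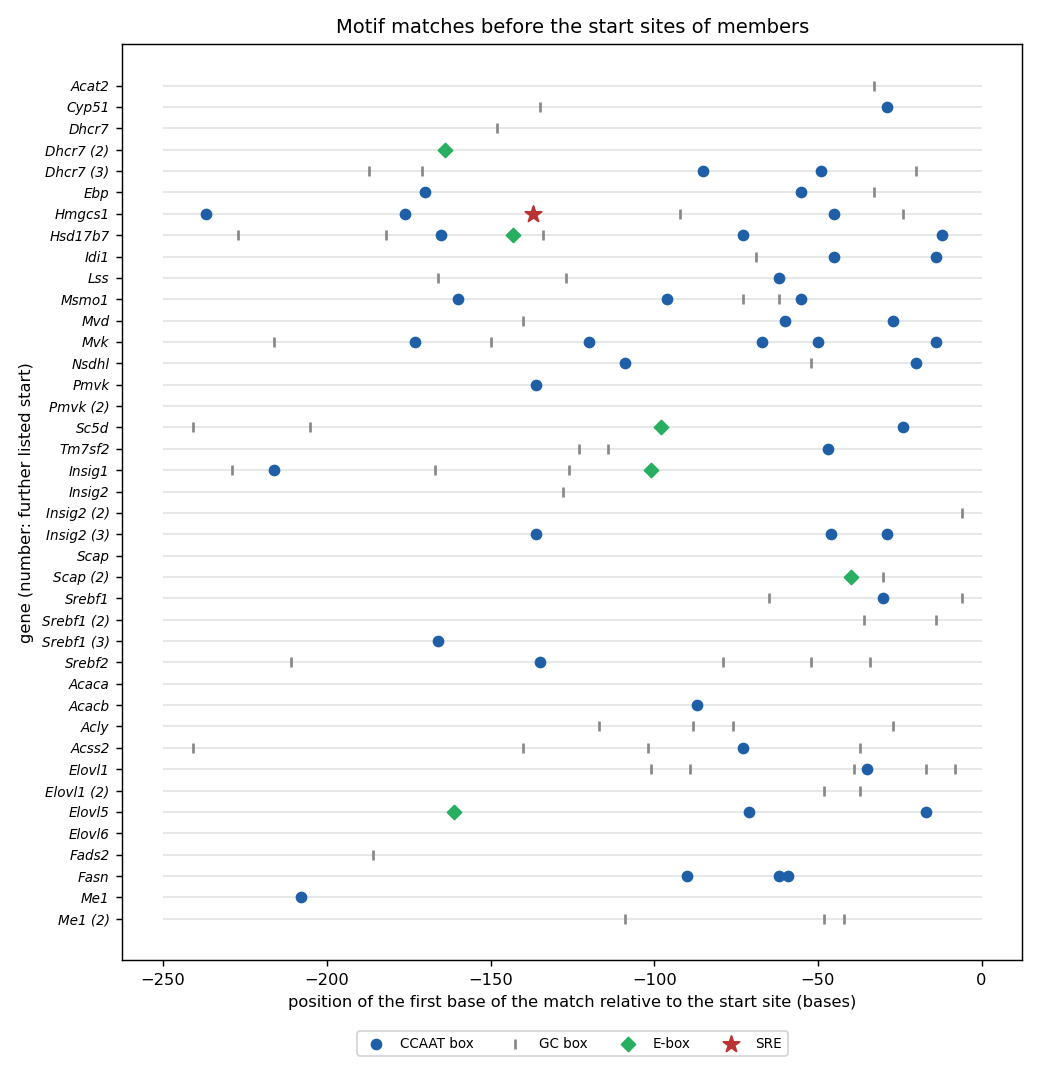
Positions of motif matches in the 250 bases before each listed start of the 30 members in the promoter table (x axis, bases relative to the start site, 1 line per listed start, sterol enzymes at the top, regulators next, fatty acid genes at the bottom). CCAAT boxes (blue circles) lie before the starts of 14 of 15 sterol enzymes. The only match to the SRE string TCACNCCAC (red star) lies 137 bases before the start of Hmgcs1.

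Of the 33 measured members 3 fell, 0 rose and 30 did not pass at a limma adjusted p of 0.05 over all genes. The 3 were Lss of the sterol enzymes, Scap of the regulators and Elovl6 of the fatty acid genes. None of the 3 calls held in every fit that left out 1 array. No member passed without control replicate 1, control replicate 3 or knockdown replicate 4. Scap alone passed without control replicate 2, Lss alone without knockdown replicate 6, and Elovl6 and Stard4 without knockdown replicate 5. With limma's trend and robust settings 11 members passed as lower and 1, Ebp, as higher, while the calls over all genes went from 1017 to 1908. Across all genes 5.21% were called, 2.22% as lower and 2.99% as higher. All 33 members lay above the negative-control percentile in both groups, and among the 7885 genes that did so 3.93% were called lower and 3.87% higher. The differences of the members were mostly small and below 0. They were below 0 for 26 of 33, against 53.2% of all genes and 55.7% of the 7885 brighter ones. The median difference was -0.14 over the 33 members, against -0.01 over all genes and -0.02 over the brighter genes. All 3 knockdown arrays lay below all 3 controls for 18 members and above them for 2, while 13 overlapped. Such separation was found for 13.9% of all genes downward and 11.6% upward, and for 22.6% and 16.2% of the brighter genes. In limma 12 members had an unadjusted p under 0.05 in the downward direction and 1 upward, against 10.0% and 9.11% of all genes and 15.3% and 11.5% of the brighter ones. With median centring of the arrays, the calls over all genes turned from 584 higher and 433 lower to 506 higher and 567 lower.

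**Figure D2:**
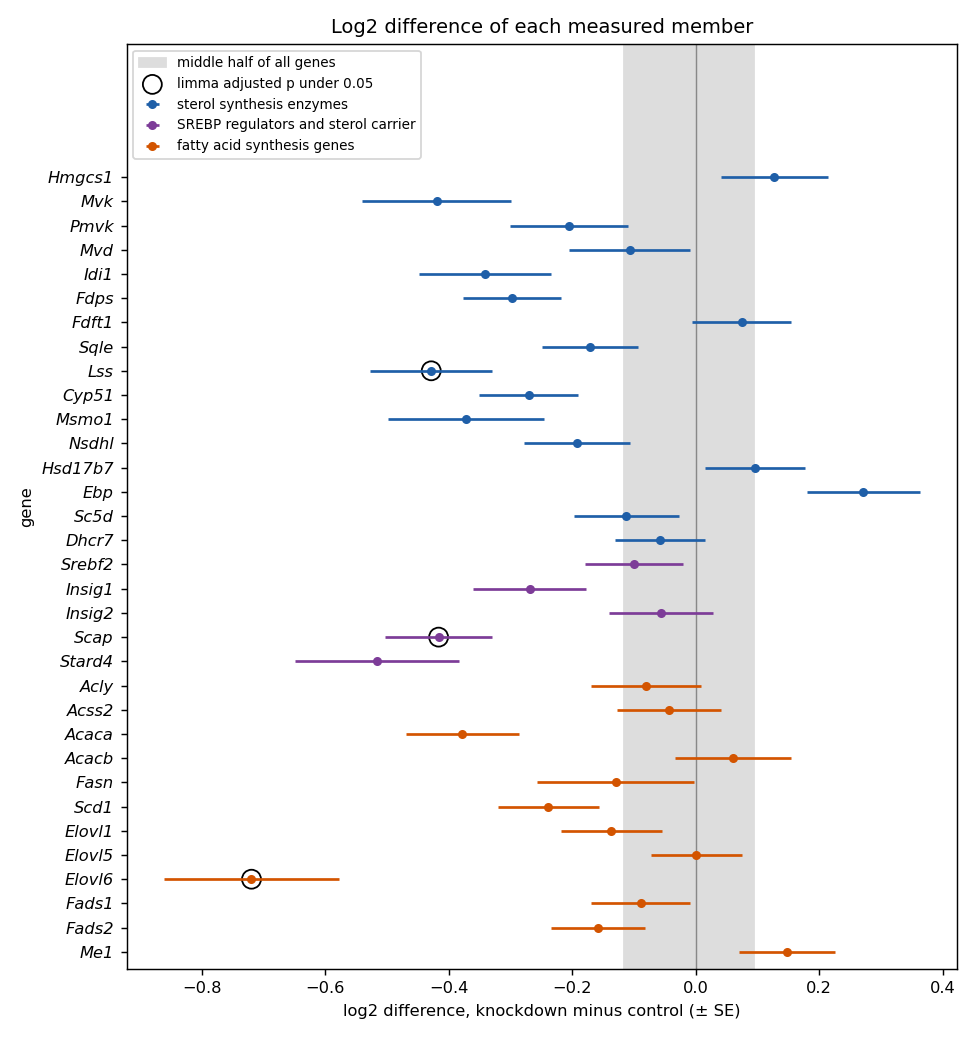
Log2 difference of each measured member (x axis, knockdown minus control, bars ± SE from limma, n = 3 arrays per group), with sterol enzymes in blue, regulators in purple and fatty acid genes in orange. The grey band spans the quartiles of all 19505 genes (-0.12 to 0.09), and rings mark Lss, Scap and Elovl6, the members past an adjusted p of 0.05.

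The 16 sterol synthesis enzymes had a median difference of -0.18. Of them 1 fell, 0 rose and 15 did not pass. Lss encodes lanosterol synthase, which closes the ring system of the sterols. Its signals were 10.30, 10.41 and 10.33 on the control arrays and 9.75, 9.91 and 10.09 on the knockdown arrays. All 3 knockdown arrays lay below the controls, replicate 4 farthest. Lss fell by 0.43 ± 0.10 on the log2 scale (SE, limma adjusted p = 0.0425), to 74.3% of the control signal (95% interval 63.7 to 86.8%). The call was lost with cyclic loess normalization (limma adjusted p = 0.0518). It stayed without knockdown replicate 6 (limma adjusted p = 0.0424) and was lost without any other single array, with limma adjusted p-values of 0.0791 to 0.134.

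Among the 6 enzymes from acetyl units to farnesyl diphosphate, 5 had differences below 0. None passed limma's threshold (0 of 6), and 3 had an unadjusted p under 0.05. Mvk, mevalonate kinase, had 8.67, 8.65 and 8.60 in the controls and 8.37, 7.93 and 8.36 in the knockdown. The groups were apart, with knockdown replicate 5 far below the other knockdown arrays. The difference of Mvk was -0.42 ± 0.12 (SE, limma adjusted p = 0.0907). Idi1, which isomerizes isopentenyl diphosphate, had 9.04, 9.30 and 8.92 against 8.76, 8.80 and 8.68. Here the controls were spread and the knockdown arrays close together, and the difference was -0.34 ± 0.11 (SE, limma adjusted p = 0.116). Fdps, which makes farnesyl diphosphate, had 8.84, 8.99 and 8.86 against 8.55, 8.63 and 8.62. The knockdown arrays lay close together and below every control. Its difference was -0.30 ± 0.08 (SE, limma adjusted p = 0.0709). Pmvk, phosphomevalonate kinase, and Mvd, mevalonate diphosphate decarboxylase, had differences of -0.21 and -0.11, with overlapping groups. Hmgcs1, HMG-CoA synthase, held the SRE letters, alone among the 30 members searched. It went the other way, with 11.30, 11.39 and 11.16 against 11.36, 11.46 and 11.42. Its groups overlapped and its difference was 0.13 ± 0.09 (SE).

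At the step to squalene, Fdft1, squalene synthase, had a difference of 0.07 ± 0.08 (SE) and overlapping groups. Sqle, squalene epoxidase, a rate-limiting enzyme of the route, had 9.38, 9.41 and 9.36 in the controls and 9.13, 9.27 and 9.24 in the knockdown. Every knockdown array was lower, by a small amount. The difference of Sqle was -0.17 ± 0.08 (SE, limma adjusted p = 0.272).

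Of the 7 enzymes from lanosterol to cholesterol, 5 had differences below 0 and 2 above. None passed limma's threshold (0 of 7), and 3 had an unadjusted p under 0.05, Ebp among them. Cyp51, the lanosterol demethylase, had 10.25, 10.34 and 10.21 against 9.96, 10.07 and 9.96. The groups were apart, and the difference was -0.27 ± 0.08 (SE, limma adjusted p = 0.0977). Msmo1, a methylsterol oxidase that acts after it, had 8.92, 8.93 and 9.01 against 8.29, 8.80 and 8.65. Replicate 4 was far below the controls and replicate 5 just below them. The difference of Msmo1 was -0.37 ± 0.13 (SE, limma adjusted p = 0.146). Ebp, the sterol isomerase, went up, with 9.58, 9.67 and 9.77 in the controls and 10.01, 9.82 and 10.01 in the knockdown. Its groups were apart, replicate 5 again nearest the controls, and its difference of 0.27 ± 0.09 did not pass (SE, limma adjusted p = 0.142). Nsdhl, a sterol dehydrogenase of the demethylation steps, had a difference of -0.19, and Dhcr7, the last reductase of the route, -0.06, both with every knockdown array below the controls. Sc5d, the sterol desaturase, had -0.11 and Hsd17b7, a sterol ketoreductase, 0.10, with overlapping groups.

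**Figure D3:**
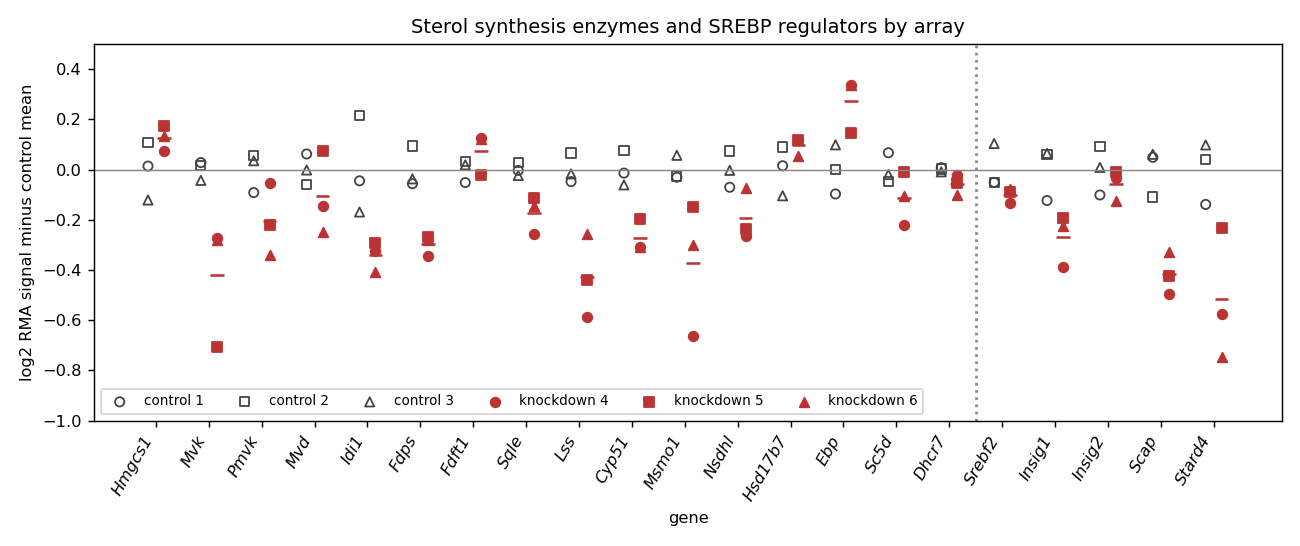
Log2 signal of the 16 sterol synthesis enzymes in pathway order (left of the dotted line) and the 5 regulators (right) on each array, minus the control mean of the gene. Open symbols are the 3 controls, red symbols the 3 knockdown arrays, and red bars the knockdown means. The 3 knockdown arrays of Lss and Scap lie below every control, and those of Ebp above.

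Of the 5 measured regulators, the sterol carrier Stard4 counted among them, 1 fell, and all 5 differences were below 0 (median -0.27). Scap, which escorts SREBPs from the endoplasmic reticulum to the Golgi, had 10.63, 10.47 and 10.64 in the controls and 10.09, 10.16 and 10.26 in the knockdown. The groups were apart, and here knockdown replicate 6 was nearest the controls. Scap fell by 0.42 ± 0.09 on the log2 scale (SE, limma adjusted p = 0.0287), to 74.9% of the control signal (95% interval 65.4 to 85.8%). The call stayed without control replicate 2 (limma adjusted p = 0.0406) and was lost without any other single array (0.0554 to 0.109). Stard4, a cytosolic sterol carrier, had 8.67, 8.85 and 8.91 against 8.24, 8.58 and 8.07. Its difference of -0.52 ± 0.13 was larger than that of Scap but more spread, with replicate 5 nearest the controls, and it did not pass (SE, limma adjusted p = 0.0629). Without knockdown replicate 5 Stard4 passed, with a limma adjusted p of 0.0135 and a difference of -0.66. Insig1, which retains SCAP in the endoplasmic reticulum and is itself an SREBP target, had 9.47, 9.65 and 9.65 against 9.20, 9.40 and 9.37. The groups were narrowly apart, and the difference was -0.27 ± 0.09 (SE, limma adjusted p = 0.146). Srebf2, the SREBP that drives the sterol genes, had 11.62, 11.62 and 11.78 against 11.54, 11.58 and 11.60. The knockdown arrays lay just below the controls, with a difference of -0.10 ± 0.08 (SE, limma adjusted p = 0.559). Insig2 had a difference of -0.06 with overlapping groups.

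The 12 fatty acid synthesis genes had a median difference of -0.11, and 1 fell, 0 rose and 11 did not pass. Elovl6, which lengthens palmitate and other long saturated chains, had 11.60, 11.69 and 11.69 in the controls and 10.66, 11.27 and 10.88 in the knockdown. The controls were tight and the knockdown arrays spread, with replicate 5 nearest the controls. Elovl6 fell by 0.72 ± 0.14 on the log2 scale (SE, limma adjusted p = 0.0231), to 60.7% of the control signal (95% interval 48.7 to 75.8%), the lowest share among the 33 members. The call stayed without knockdown replicate 5 (limma adjusted p = 0.00290) and was lost without any other single array (0.0646 to 0.0899). The other elongases differed less. Elovl1 had a difference of -0.14, with every knockdown array below the controls, and Elovl5 0.00, with a 95% interval of -0.17 to 0.17.

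Acaca, the cytosolic acetyl-CoA carboxylase, makes malonyl-CoA and is rate-limiting for fatty acid synthesis. It had 9.01, 9.04 and 9.12 against 8.52, 8.76 and 8.76. All knockdown arrays were lower, replicate 4 most, and the difference of -0.38 ± 0.09 just missed the threshold (SE, limma adjusted p = 0.0511). With a second quantile normalization, median centring, the dimmest genes left out, trend and robust settings or array weights it passed, at limma adjusted p-values of 0.0124 to 0.0489. Fasn, the fatty acid synthase, had 9.99, 9.93 and 10.12 against 9.77, 10.17 and 9.70. Replicate 5 lay above every control and the other knockdown arrays below, and the difference was -0.13 ± 0.13 (SE, limma adjusted p = 0.647). Scd1, the stearoyl-CoA desaturase, had 11.14, 11.34 and 11.20 against 10.98, 10.97 and 11.02. Its knockdown arrays were close together below the controls, with a difference of -0.24 ± 0.08 (SE, limma adjusted p = 0.148). The polyunsaturated fatty acid desaturases Fads1 and Fads2 had differences of -0.09 and -0.16. Acly, which splits citrate to acetyl-CoA, had -0.08, and Acss2, which activates acetate, -0.04, both with overlapping groups. Acacb, the mitochondrial carboxylase, had 0.06. Me1, malic enzyme and a source of NADPH, had 0.15, with every knockdown array above the controls.

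**Figure D4:**
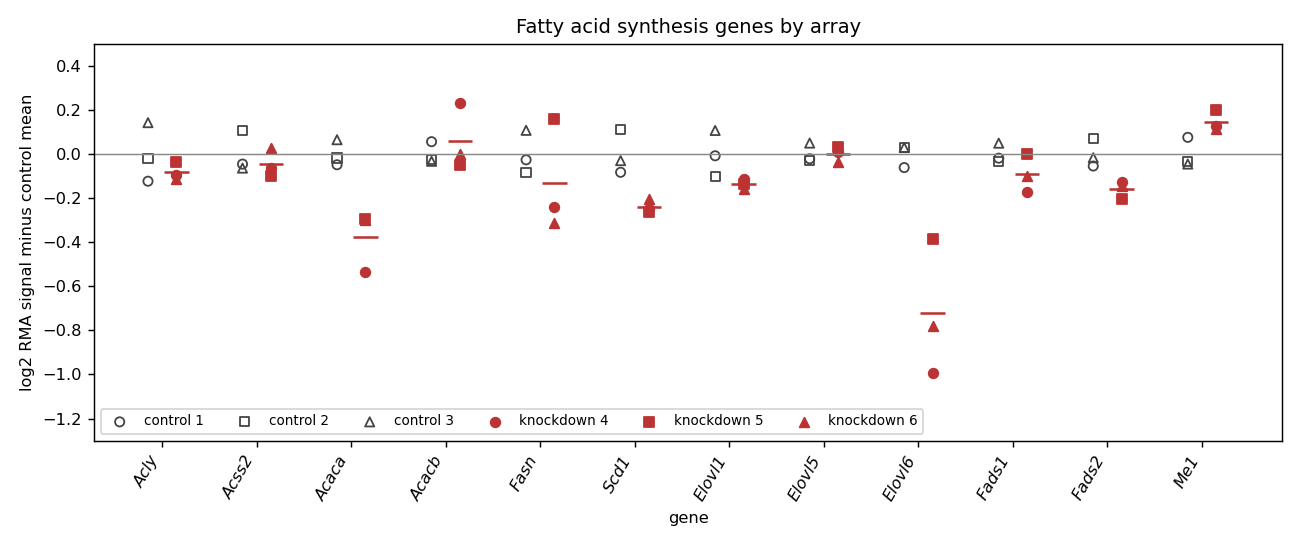
Log2 signal of the 12 fatty acid synthesis genes on each array, minus the control mean of the gene. Open symbols are the 3 controls, red symbols the 3 knockdown arrays, and red bars the knockdown means. Elovl6 shows the widest drop, with replicate 5 nearest the controls, and for Fasn replicate 5 lies above every control.

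Replicate 5 was the knockdown array with the most Rras2 and the lowest muscle marker level. It was nearest the control mean for 17 of the 33 members, replicate 6 for 9 and replicate 4 for 7. Among the sterol enzymes replicate 5 was nearest for 9 of 16 and among the fatty acid genes for 5 of 12. The same count over all genes was not made, so the position of replicate 5 cannot be called particular to the members. Whether these counts go with the Rras2 level was not tested. The median deviation of the sterol enzymes from their mean over the 6 arrays was 0.09, 0.14 and 0.06 on the control arrays and -0.12, -0.04 and -0.07 on replicates 4, 5 and 6. For the fatty acid genes it was 0.03, 0.02 and 0.09 against -0.05, -0.05 and -0.07. Every control array thus lay above every knockdown array in both medians, and the gap was narrower for the fatty acid genes. The medians over all 19505 genes were ordered the same way, at 0.00086, 0.0051 and 0.0126 on the control arrays and -0.0068, -0.0056 and -0.0031 on the knockdown arrays, so the order itself is not particular to the members. Over the 7885 brighter genes the medians overlapped, at 0.0169, -0.0069 and 0.0292 against -0.0266, 0.0020 and -0.0071.

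Other genes of lipid metabolism were taken from 7 lists. Over all genes 2.22% were called lower and 2.99% higher, and 10.0% and 9.11% had an unadjusted limma p under 0.05 downward and upward. Among the 7885 brighter genes these shares were 3.93%, 3.87%, 15.3% and 11.5%. The isoprenoid branch and prenylation genes had 0 of 14 past limma's threshold (median -0.14), with 3 at an unadjusted p under 0.05 downward and 1 upward. In the list of SREBP processing and turnover 1 of 13 fell (median -0.01). It was Erlin1, an endoplasmic reticulum scaffold that restrains SREBP activation, with 9.43, 9.14 and 9.45 against 8.86, 8.87 and 8.92 and a difference of -0.45 ± 0.10 (SE, limma adjusted p = 0.0341). The call of Erlin1 stayed in 1 of the 6 fits that leave out 1 array.

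Of 17 genes of cholesterol uptake, transport and storage, 3 fell and 1 rose (median 0.06). Lrp8, a receptor of apolipoprotein E, had 9.73, 9.67 and 10.14 in the controls and 8.74, 9.16 and 8.81 in the knockdown. Its groups were well apart and it fell by 0.94 ± 0.15 (SE, limma adjusted p = 0.0100), to 52.0% of the control signal. Scarb1, the HDL receptor, had 9.84, 9.80 and 9.90 against 9.30, 9.28 and 9.11 and fell by 0.62 ± 0.08 (SE, limma adjusted p = 0.00502). The fall of Scarb1 stayed in all 6 fits without 1 array and that of Lrp8 in 5. Osbp, an oxysterol-binding exchange protein, fell by 0.37 (limma adjusted p = 0.0483) and stayed in 0 of the 6. Npc2, which hands cholesterol on within lysosomes, rose by 0.48 (limma adjusted p = 0.0110) and stayed in 5. Of 11 genes of LXR and cholesterol efflux, the route by which cells shed sterol, 0 passed limma's threshold and 1 had an unadjusted p under 0.05 (median 0.09), and 7 of these genes lay below the negative-control percentile in both groups.

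Among 23 genes of glycerolipid synthesis and lipid droplets 2 fell and 1 rose (median -0.10). Acsl5, an acyl-CoA synthetase, fell by 0.43 (limma adjusted p = 0.0249), and Fitm2, which helps lipid droplets form, by 0.39 (limma adjusted p = 0.0462). Plin2, a coat protein of lipid droplets, rose by 0.37 (limma adjusted p = 0.0300), from 10.74, 10.60 and 10.63 to 11.03, 10.99 and 11.07. Of the 6 fits with an array left out, Acsl5 and Plin2 passed in 1 each and Fitm2 in 0. Of 26 genes of citrate, malonyl and acyl supply 0 passed limma's threshold (median -0.04), with 7 at an unadjusted p under 0.05 downward and 1 upward. In the fatty acid oxidation list 2 of 19 rose and 1 fell (median 0.02). All 3 belong to the Cpt1 gene family, named for carnitine palmitoyltransferase, and enzyme activity was not measured. Cpt1a, the widespread form that admits fatty acids to mitochondria, rose by 0.34 (limma adjusted p = 0.0385) and Cpt1c by 0.53 (limma adjusted p = 0.0110), and the dim Cpt1b fell by 0.32 (limma adjusted p = 0.0390). Cpt1c stayed in 5 of the 6 fits without 1 array, Cpt1a and Cpt1b in 0.

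**Figure D5:**
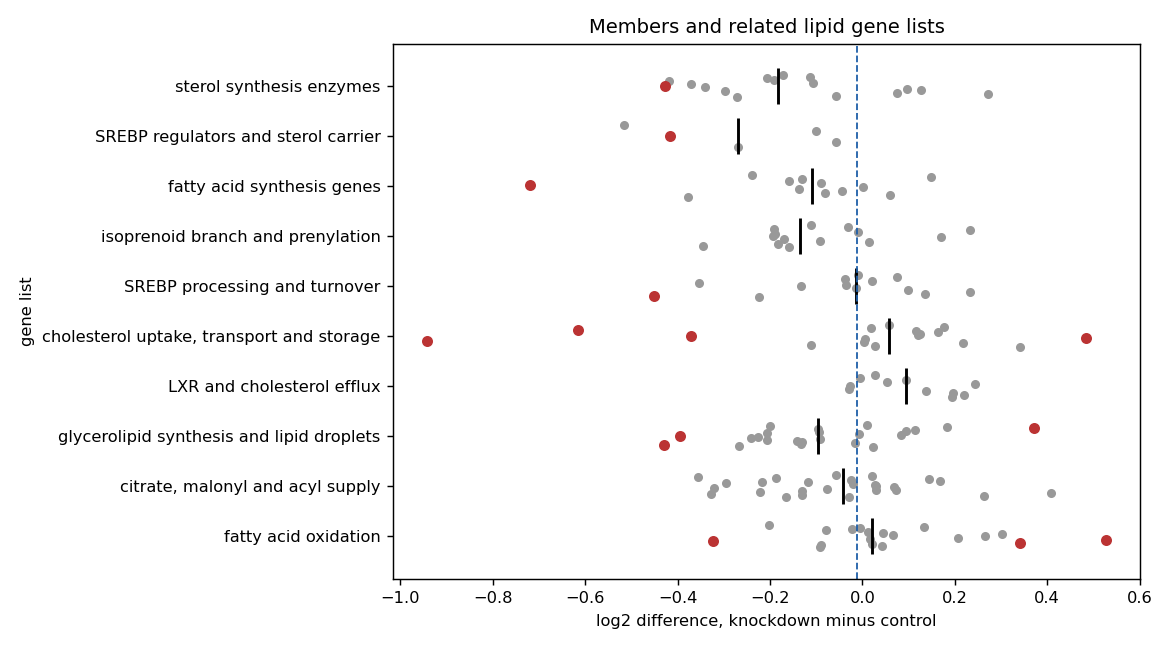
Log2 differences (x axis, knockdown minus control) of the genes in the 3 member groups and 7 related lists, 1 point per gene, red where the limma adjusted p was under 0.05. Black bars are list medians and the dashed line is the median of all genes (-0.01). The 3 member groups have medians of -0.18, -0.27 and -0.11, and Lrp8 (-0.94) lies lowest.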

How the data were processed

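RNA of 3 control and 3 knockdown samples was measured on 1 Affymetrix array each. Per the submitters' processing notes, the authors used RMA and R 3.6.3, and each deposited value is the log2 signal of a probe set. RMA subtracts background, equalizes the arrays' distributions and combines probes, which compresses differences of dim genes. Not given in the sources used here are the package version, genome build and filters. Of 29129 probe sets, 19572 had 1 gene symbol in the platform annotation, and the brightest of each symbol was kept (19505 genes). No detection calls were used, and the 5222 negative-control probe sets gave the background level.

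Groups were compared in R 4.3.3 by limma 3.58.1, using lmFit and eBayes without covariates (two-sided). P-values were adjusted by Benjamini-Hochberg across the 19505 genes. Intervals are 95% intervals from that fit. The number of arrays limits the precision (median SE 0.096). The members, lists and tests were chosen with earlier results of these data known. Full values are given for members past the threshold or with an unadjusted p under 0.05, for preset key genes and for Hmgcs1, which was not preset. Genes of the related lists past the threshold are named with their difference and adjusted p, and a few of them with the value on each array. Promoter motifs were searched with Python 3.11.15. The alternatives were other normalizations, centring, a filter on dim genes, other handling of probe sets, trend and robust eBayes, array weights and leaving out each array.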

Additional observations from a re-analysis of the deposited data

How the results depend on the processing

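Of the settings tried, averaging the probe sets of a gene and testing every probe set left the calls of the members as they were. With each array centred on its median, 2 sterol enzymes, 2 fatty acid genes and 1 regulator passed. The median difference of the sterol enzymes was then -0.22, while that of all genes also moved down, from -0.012 to -0.052. Without the 30% of genes with the lowest mean, 2 of each of the 3 groups passed, with fewer genes tested (13653). With trend and robust eBayes, 7 sterol enzymes (6 lower, 1 higher), 3 fatty acid genes and 2 regulators passed, and 1908 genes in all. Cyclic loess left 0 sterol enzymes in limma, a second quantile normalization gave 2 fatty acid genes, and array weights gave 2 fatty acid genes and 2 regulators. The causes were not tested. When each array was left out in turn, the calls over all genes ran from 392 to 1136, those of the sterol enzymes, fatty acid genes and regulators from 0 to 1 each, the median of the sterol enzymes from -0.20 to -0.14 (-0.14 without knockdown replicate 4) and that of the fatty acid genes from -0.14 to -0.07. Rras2 passed in all 6 of these fits, with differences from -1.59 to -1.29. Signs of values near 0 turned for Elovl5, to -0.039 with median centring and -0.000864 with array weights. They also turned in fits without 1 array, in which Elovl5 ranged from -0.0136 to 0.0263, Acss2 from -0.0795 (without knockdown replicate 6) to 0.0108 (without control replicate 2) and Acacb from -0.0256 (without knockdown replicate 4) to 0.116 (without knockdown replicate 5). No paired analysis was possible because the groups share no replicate numbers. With 3 arrays a group, the median SE was 0.096 over all genes and 0.086 over the members. Of the 33 members, 19 had differences within 0.2 of 0, all with an unadjusted p above 0.05 in limma. Differences of that size could not be told from the spread between arrays by that test. The 13 members with an unadjusted p under 0.05 had larger differences, and 3 of them passed the adjusted threshold.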
